A study of Rattus norvegicus with 13 samples.

Results

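The 7 control arrays of the series hold the fat microRNA (miRNA) profile of daughters whose fathers ate standard chow, and they are described here on their own, as a baseline. They were chosen by sample title (controls 622, 627, 631, 656, 658, 662 and 664) and make up 7 of the 13 arrays; no measured value entered the choice. All of the animals were female Sprague Dawley rats from chow-fed mothers, weaned onto chow at 3 weeks, with fat taken at 14 weeks. Control fathers ate chow with 9% as fat and mated at 15 weeks of age, and the other 6 arrays come from daughters of fathers on pellets with 43% as fat (HFD), used here to show whether detection and spread recur and, with the control arrays, to choose the probes that set the scale. The labels name no fat depot, father or litter, so sisters may be among the 7, and the spread given is that between these arrays as labelled.

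A miRNA is a short RNA cut from a hairpin precursor. Loaded into an Argonaute protein, it pairs with messenger RNAs, mostly through its seed (bases 2 to 8 from the 5′ end), and lowers their output. Fat holds adipocytes, vessels, blood, nerve and connective tissue, and the profile of a piece of fat sums them all. Some miRNAs are known to be concentrated in 1 cell type: miR-1, miR-133 and miR-206 in striated muscle, miR-451 and miR-144 in red cells, miR-142 and miR-223 in white cells, miR-126 in endothelium, miR-143 and miR-145 in smooth muscle and other stromal cells. Others, such as the let-7 family, are found in most adult tissues.

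The mature sequences of the miRNAs on which the results turn are given with the seed in capitals, from RefSeq (assembly GRCr8). The first group holds 5 of the brightest, of which 3 share the let-7 seed. The second holds muscle and red cell miRNAs that set arrays apart. The last holds miR-338 and the 3 miR-196 members, which were among the most variable.
let-7f: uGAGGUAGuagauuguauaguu
let-7a: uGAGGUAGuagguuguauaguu
let-7c: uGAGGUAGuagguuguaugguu
miR-23a: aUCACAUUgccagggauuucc
miR-26a: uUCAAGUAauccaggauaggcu
miR-133b: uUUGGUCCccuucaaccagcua
miR-206: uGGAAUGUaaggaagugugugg
miR-451: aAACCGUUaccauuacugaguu
miR-144: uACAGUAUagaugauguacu
miR-338: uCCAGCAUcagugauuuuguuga
miR-196a: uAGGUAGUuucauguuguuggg
miR-196b: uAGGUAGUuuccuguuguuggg
miR-196c: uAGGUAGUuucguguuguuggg

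In GRCr8, miR-26a lies at chr8:127633063-127633084 on the plus strand, within the protein-coding gene Ctdspl. miR-338 lies at chr10:105796345-105796367 on the minus strand, within Aatk. miR-133b (chr9:30594629-30594650, plus) and miR-206 (chr9:30590747-30590768, plus) lie within the same long non-coding RNA gene. miR-144 (chr10:63459446-63459465, plus) and miR-451 (chr10:63459585-63459606, plus) are neighbours, with no annotated gene across them other than their own. miR-196a, miR-196b and miR-196c come from chromosomes 7, 4 and 10. Of the 220 miRNAs seen on at least 1 control array, 157 were matched to a RefSeq mature sequence, and the 171 seen on all 7 included 136 of these.

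Signal is a scanner brightness, since each array was hybridised with Cy3-labelled RNA. Signals are given in 2 ways. The total gene signal is the scanner software's brightness of a miRNA over all its probes, given here as a share of an array's summed signal; shares sum to 100% on an array, so a large one lowers the rest. The level is log2 of the probe signal relative to the array's 75th percentile of the 260 probes detected on all 13 arrays. Probes differ in brightness, so an order of brightness is not an order of abundance, and members of a family that differ by 1 base may share signal. On the control arrays 19.98% to 23.8% of spots were well above background, 0 were saturated, and summed signal ran from 199224 (control 627) to 301369 (control 662). Flagged spots made up 2.14% to 3.71%. The median coefficient of variation of replicate spots was 3.75% to 5.27%, and the SD of negative control spots 7.99 to 10.9. Control 662 was highest in each of these.

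Arrays of the group do not all carry the same cell-type markers, which is given here before the results. Of the 14 miRNAs of the muscle list, 3 were detected on all control arrays (21.4%, against 25.3% over all 677 miRNAs). Another 8 were detected on none, among these both strands of miR-208, where 67.5% of all 677 were on none. The 14 together made up 0.0936% to 0.135% of the signal on controls 622, 627, 631 and 656. They made up 0.488% on control 658, 7.16% on control 664 and 10.9% on control 662. The 14 miRNAs of the smooth muscle and stromal list made up 16.8% on control 658 and 5.40% to 6.96% on the others. Of the 16.8%, miR-143 alone held 11.97%, while miR-10b, also of the list, had its lowest share on control 658 (0.867%). Red cell miRNAs made up 1.67% to 2.71% on the first 4 arrays and 4.32% to 5.07% on controls 658, 662 and 664. Those 3 were on slide 2 and the first 4 on slide 1, so slide and animal number cannot be told apart within the group, nor from the muscle and red cell shares. In bulk tissue, more cells of a type and more RNA per cell cannot be told apart either. The main counts and spreads that rest on these arrays are therefore also given without controls 662 and 664, or without control 658.

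**Figure D1:**
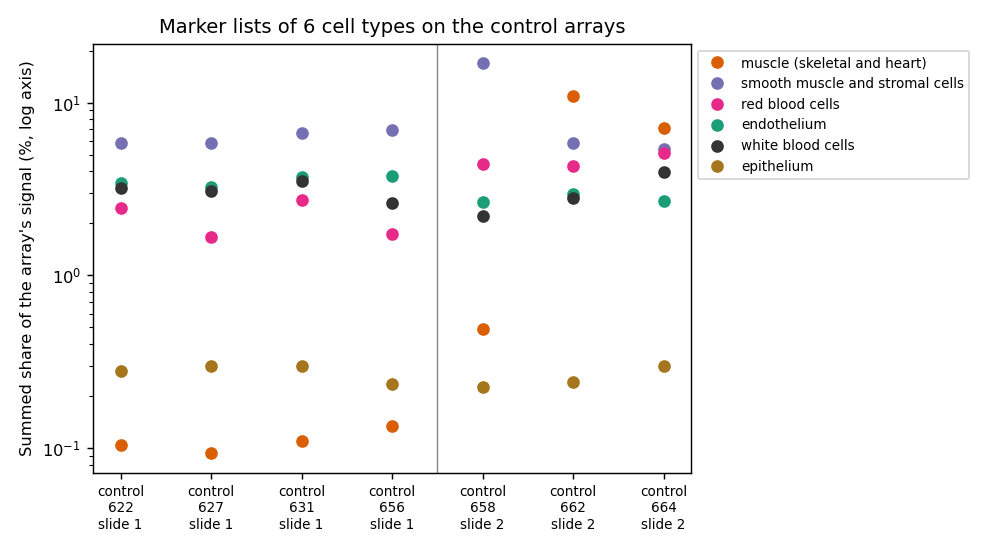
Summed share of each control array's signal (%, log axis) held by 6 marker lists, with 1 point per list and array and a line between the 4 arrays of slide 1 and the 3 of slide 2. Muscle miRNAs run from 0.0936% on control 627 to 10.9% on control 662, stromal miRNAs peak at 16.8% on control 658, and endothelial miRNAs stay between 2.65% and 3.76%.

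A minority of the array's miRNAs formed a profile shared by all of the animals. Of 677 rat miRNAs, 171 (25.3%) were detected on all 7 control arrays, 49 (7.24%) on some and 457 (67.5%) on none, by the scanner software's own call. An array detected 179 (control 627) to 202 (control 662) miRNAs, with a mean of 195 ± 8.42 (SD, n = 7). The set recurred on the other arrays: 169 of its members were detected on all 6 HFD arrays, and 438 of the 457 were detected on none of them. Without controls 662 and 664, 171 miRNAs were still detected on all arrays, and the number detected on some fell from 49 to 43. The star in a name marks the lesser strand of a hairpin in the older naming; 240 of the 677 names carry one, but 25 of the 171 and 200 of the 457.

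**Figure D2:**
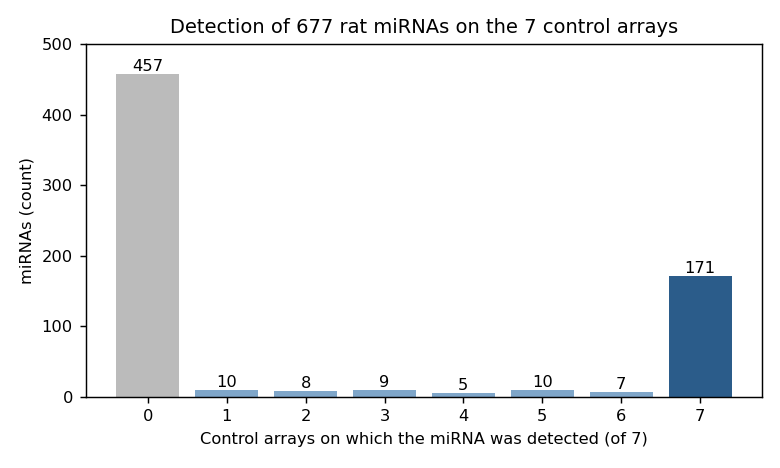
Number of rat miRNAs (bars, count axis from 0) by the number of control arrays on which they were detected, from 0 to 7. Most sit at the ends, 457 at 0 and 171 at 7, with 49 between.

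The shared profile held members of the ubiquitous families and of the lists known from adipocytes. Of 13 let-7 names on the array 8 were detected on all 7 arrays, of 11 miR-30 names 8, of 7 miR-29 names 5, and of 12 names of the miR-15/16 family 7. The list of miRNAs described as promoting adipocyte differentiation had 19 of 31 members on all 7 arrays, 2 on some and 10 on none. The list described as restraining it had 8 of 26 on all, 3 on some and 15 on none, and the brown and beige adipocyte list 12 of 25 on all, 4 on some and 9 on none. Of the miR-23/27/24 clusters 6 of 11 names were on all arrays, of the miR-99/100 and miR-125 families 7 of 11, of the miR-181 family 4 of 8, of the miR-103 and miR-107 names 2 of 5, and of the Hox-cluster miR-196 and miR-10 group 6 of 10. Across all 677 miRNAs the share on all arrays was 25.3%. It was 61.3% for the promoting list and 48.0% for the brown and beige list. For the restraining list it was 30.8%, near the share over all miRNAs. No miRNA is known to be confined to adipocytes, so the tissue label has no defining marker to be checked against here.

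Lists of other tissues differed in how much of them was detected, against 25.3% on all arrays and 67.5% on none over all 677 miRNAs. All 8 names of the pancreas and endocrine list, miR-375, miR-217 and both strands of miR-216a among them, were undetected on every control array. The 21 miRNAs of testis and germ cells had 0 members on all arrays and 2 on some, and the 10 embryonic and placental ones had 1 on all, miR-290. Of 17 epithelial names, 2 were on all arrays (miR-203 and miR-205), 3 on some and 12 on none. The share on none was near that over all miRNAs, and the share on all, 11.8%, was below it. Of 86 names of the imprinted Dlk1-Dio3 cluster, a run of miRNAs expressed from the maternal chromosome and most active in embryo and brain, 6 were on all, 6 on some and 74 on none, and together they gave 0.264% to 0.392% of the signal. Of 25 names of the brain, nerve and glia list, 7 were on all, 6 on some and 12 on none, a share on all arrays of 28.0%; those on all included miR-338, miR-212, miR-218 and miR-204.

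Endothelial and blood miRNAs belonged to the shared profile. Both strands of miR-126, encoded within the endothelial gene Egfl7, were on all 7 arrays, and together gave 2.65% to 3.76% of the signal. The white cell list had 8 of 13 on all arrays (61.5%, against 25.3% over all 677 miRNAs). The list gave 2.20% (control 658) to 3.98% (control 664). Its brightest members were miR-142-3p (0.737% to 1.72%), miR-146a (0.554% to 0.890%), miR-223 (0.332% to 0.633%) and miR-150 (0.364% to 0.533%). For each of those 4 the lowest share was on control 658.

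The 10 dimmest miRNAs detected on all 7 arrays were miR-10b*, miR-362, miR-674-3p, miR-505, miR-350, miR-29a*, miR-194, miR-708, let-7a-1* and miR-466b. The total gene signal of miR-10b* was 8.82 on control 627 and 17.3 on control 656, against 7.31 to 9.87 for the dimmest detected miRNA of each array. These are at the limit of the call, and 6 of the 10 have no spread here, because none of their probes was detected on all 7 arrays.

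Between the ends lay miRNAs whose detection went with particular arrays. Striated muscle miRNAs led the 49: miR-206 was detected on controls 662 (signal 988) and 664 (642) only. miR-133a was at 38.5 on control 658, 800 on control 662 and 474 on control 664, and was not detected on the 4 arrays of slide 1. Its star strand was at 355 on control 662 and 199 on control 664 only. These are the arrays with the high muscle share above.

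The liver miRNA miR-122 was detected on 5 arrays, with a signal of 402 on control 622, 182 on control 662, 83.6 on control 664, 49.7 on control 658 and 43.1 on control 627. It was not detected on controls 631 and 656, and its star strand was detected on none. It does not follow the slides: its highest value was on slide 1 and its second on slide 2. miR-122 was detected on all 6 HFD arrays.

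The epithelial pair miR-200a and miR-200b was brightest on slide 2. miR-200a was at 54.1, 73.3 and 89.7 on controls 658, 662 and 664, at 16.3 and 21.1 on controls 622 and 627, and not detected on controls 631 and 656. miR-200b was at 43.4, 51.8 and 76.1 on the same 3 arrays and at 17.1 on control 627. Their relatives miR-200c and miR-141 were detected on none. The summed share of the epithelial list ran from 0.225% (control 658) to 0.300% (control 627) and was not higher on slide 2, where miR-203, its brightest member, was lower.

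miR-9, a miRNA of neural cells, showed the opposite pattern. Its signal was 21.3, 14.7, 44.3 and 80.4 on controls 622, 627, 631 and 656, and it was undetected on controls 658, 662 and 664. miR-434, of the imprinted cluster, was highest on controls 662 (71.2) and 664 (69.8) and undetected on controls 627 and 658. The minor strands miR-143* and miR-144* were detected on every control array but 627. miR-143* was at 140 on control 658 and at 17.5 to 35.0 on the other 5, the same array on which miR-143 stood out.

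Of the 49, 10 were detected on a single control array. Named after their values were seen, these were miR-124 and miR-32* on control 631, miR-363 and miR-9* on control 656, miR-10a-3p and miR-145* on control 658, and miR-188, miR-3546, miR-376b-5p and miR-466b-1* on control 662. At the other end, 7 were missing from 1 array, and for 6 of them it was control 627, the array of lowest summed signal. Whether the low signal accounts for these 6 was not tested.

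The signal was concentrated in few miRNAs. The 20 brightest made up 59.5% ± 3.67 (SD, n = 7) of the summed signal, between 53.0% on control 662 and 63.4% on control 658, and the first 5 made up 23.6% ± 2.38. Without controls 662 and 664 the share of the 20 was 61.5% ± 1.12 (SD, n = 5). In order, the 20 were let-7f, let-7a, miR-23a, miR-26a, let-7c, miR-125b-5p, miR-143, miR-21, miR-126, miR-451, miR-29a, let-7b, miR-22, miR-16, let-7i, miR-24, miR-335, miR-26b, miR-29b and miR-23b. The 19 of them with a RefSeq sequence carry 12 different seeds.

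let-7f, of a family known to restrain growth and to act on insulin signalling genes, was the brightest. It held 6.48%, 6.62%, 6.32% and 6.31% of the signal on controls 622, 627, 631 and 656, and 4.99%, 5.28% and 5.94% on controls 658, 662 and 664. Its mean was 5.99% ± 0.63 (SD, n = 7). let-7a, which differs from it by 1 base, held 4.44% (control 658) to 6.07% (control 627), and let-7c 2.93% to 4.14%. The 8 miRNAs with the seed GAGGUAG together held 21.4% ± 2.50 (SD, n = 7), from 17.6% on control 658 to 24.4% on control 627. Its lowest share was on control 658, where the stromal share was high, and the next on control 662, where the muscle share was high. On the level scale let-7f had an SD of 0.094 and its slides overlapped.

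Next came miR-23a and miR-26a. miR-23a, whose clustered relatives miR-27a and miR-24 were also bright, held 4.68% to 5.20% on slide 1 and 3.76% to 3.87% on slide 2, and the slides did not overlap. miR-26a, described as promoting adipocyte differentiation, held 3.88% (control 664) to 4.59% (control 627), with a mean of 4.24% ± 0.26. miR-125b-5p, described as restraining it, held 3.16% to 4.21%. miR-21, a miRNA of many proliferating and stromal cells, held 2.53% (control 656) to 4.22% (control 658).

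2 of the 20 brightest were far less even. miR-143 held 2.56%, 2.52%, 3.31% and 3.41% on the 4 arrays of slide 1, 11.97% on control 658, and 2.45% and 1.99% on controls 662 and 664. It was the brightest miRNA on control 658. miR-451 held 2.24%, 1.498%, 2.37% and 1.53% on slide 1 and 3.79%, 3.70% and 4.49% on slide 2, and the slides did not overlap.

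**Figure D3:**
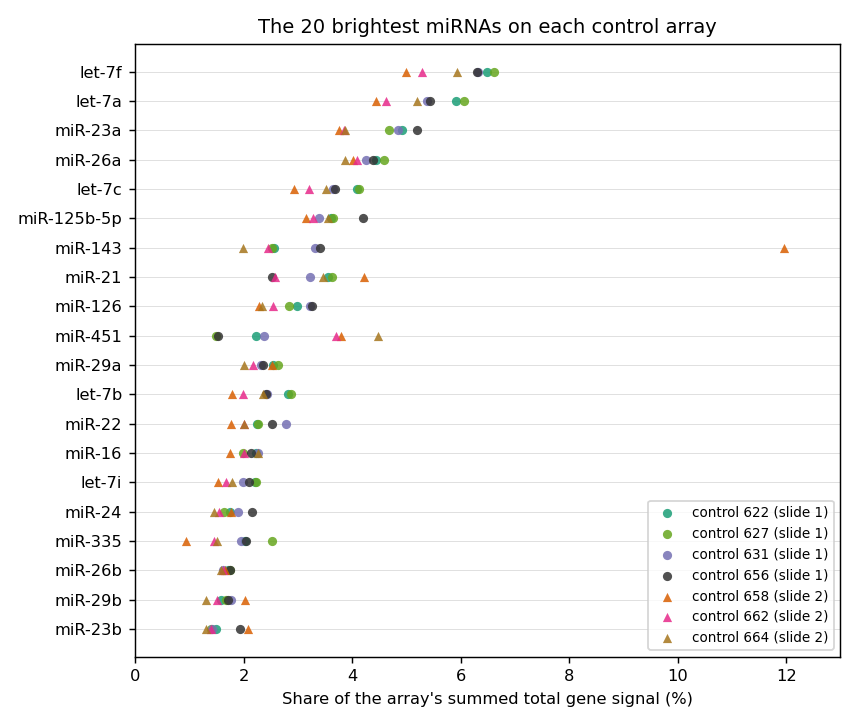
Share of each control array's summed total gene signal (%) held by the 20 brightest miRNAs, 1 point per array, circles for slide 1 and triangles for slide 2. Most rows span less than 2 percentage points, while miR-143 reaches 11.97% on control 658.

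Bright seed groups beside let-7 were the miR-29 family (AGCACCA, 3 members, 5.35% ± 0.46), the miR-15/16 family (AGCAGCA, 5 members, 5.32% ± 0.63) and 3 miR-30 members with GUAAACA (2.59% ± 0.18; SD, n = 7 each). Their shares were lowest on control 664, 658 and 664. Seed groups hold only miRNAs matched to a RefSeq sequence, which miR-30b-5p and miR-30d were not. All 11 names of the miR-30 family together held 4.17% ± 0.22 (SD, n = 7). The miR-17-92 cluster and its paralogs, known from proliferating cells, held 1.07% to 1.37%. Of their 27 names 9 were on all arrays (33.3%), near the 25.3% over all 677 miRNAs. miR-103 and miR-107, described in insulin sensitivity of fat and liver, together held 1.02% (control 658) to 1.52% (control 631).

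Most miRNAs differed little between the 7 animals. A spread could be given for 145 of the 171, those with a probe detected on all 7 arrays. Their SD of the log2 level had a median of 0.16 and quartiles of 0.12 and 0.23. The highest and lowest arrays differed by less than 1.5-fold for 98 of the 145 and by less than 2-fold for 123. The SD exceeded 1 for 3 and 0.5 for 14. The error of a mean over spots had a median of 0.017, and for 142 of the 145 the SD between animals was over 2 times that error. Where 2 probes of a miRNA could be set against each other (117 miRNAs), their difference varied between arrays with a median SD of 0.053, less than either probe alone for 104. Both comparisons stay within an array. Each animal had a single array, so differences from extraction, labelling and hybridisation are part of the SD between animals and cannot be told apart from it. The median SD was 0.15 both without controls 662 and 664 and on the HFD arrays, where 142 of the miRNAs had one. The 26 miRNAs without such a probe varied more by total gene signal, with a median SD of 0.48, against 0.20 by that measure over all 171.

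Spread differed between the groups of miRNAs, described here by the median SD of the members that have one, against 0.16 over all 145. The ubiquitous families lay near or below that: let-7 at 0.13 (8 members, 0.094 to 0.21), miR-29 at 0.14, miR-15/16 at 0.14, miR-30 at 0.15 and the miR-17-92 group at 0.17. The endothelial pair was at 0.14 and the 18 miRNAs described as promoting adipocyte differentiation at 0.16. Above it lay brown and beige adipocyte miRNAs at 0.22, those restraining differentiation at 0.28, white cell miRNAs at 0.29, brain, nerve and glia miRNAs at 0.34 and smooth muscle and stromal ones at 0.51. Highest were the Hox-cluster group at 0.77, red cell miRNAs at 0.78 and the 3 muscle miRNAs at 3.32. Several of these rest on particular arrays. Without control 658 the Hox-cluster median was 0.23, the stromal one 0.18 and that of the miRNAs restraining differentiation 0.18. Without controls 662 and 664 the muscle median was 1.29, that of miR-15/16 0.094 and that of the miR-17-92 group 0.11, against 0.15 over all 145. Members of a list can share arrays and sequences, so these medians are no test.

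Among the 145 miRNAs with an SD, spread had little to do with brightness. The 26 without one, some of the dimmest among them, are not covered. Spearman's rho between the SD and the brightness was -0.07 over 145 miRNAs of the same arrays, and the median SD was 0.15 in the brighter part and 0.17 in the dimmer. miR-1 and miR-133b alone held 61.4% of the summed squared deviations of all 145, and the 15 widest held 87.2%. Without controls 662 and 664 the share of miR-1 and miR-133b was 19.0%. By array, control 662 contributed 24.4% of that sum, control 664 21.4% and control 658 17.8%, and each slide 1 array 8.31% to 10.8%.

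**Figure D4:**
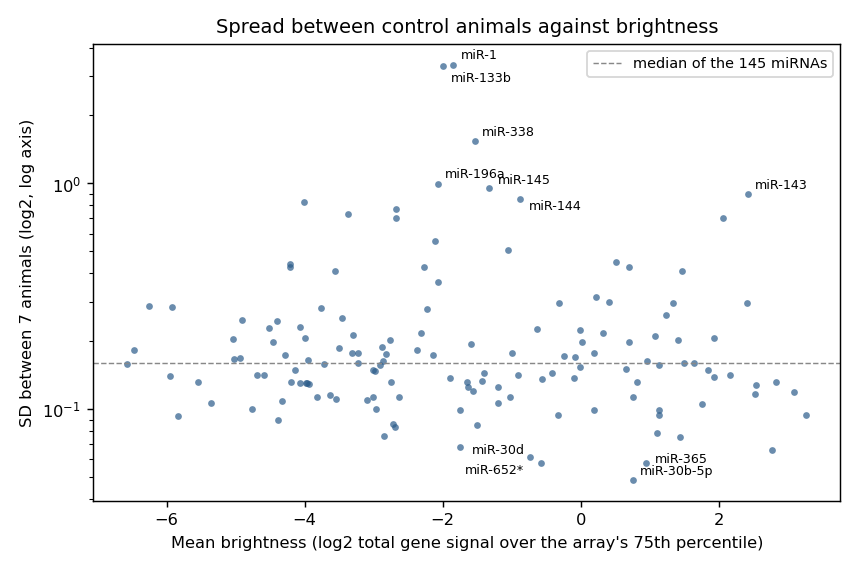
SD of the log2 level between the 7 control animals (log axis) against mean brightness (log2), 1 point for each of 145 miRNAs, with the median SD of 0.16 as a dashed line. The widest miRNAs, miR-1, miR-133b and miR-338, are of middle brightness, and miR-143 is the widest of the bright ones.

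Levels of 30 of the 145 miRNAs did not overlap between the 4 arrays of slide 1 and the 3 of slide 2 (20.7%), 18 higher on slide 2 (12.4%) and 12 lower (8.28%). With 4 arrays against 3, an exact two-sided permutation test cannot give a p below 0.0571, and none was run. The differences of slide means exceeded 1 for 5 of the 145. Among the bright miRNAs lower on slide 2 were miR-335 (1.10 on slide 1, 0.49 on slide 2), miR-23a (2.29 and 2.07), miR-126 (1.61 and 1.37) and miR-22 (1.33 and 1.11). Within slides the median SD was 0.14, and 3 miRNAs had an SD above 1. On slide 1 alone (4 arrays) the median SD was 0.12 and only miR-338 was above 1. On slide 2 alone (3 arrays) it was 0.16 and 9 miRNAs were above 1. The muscle and red cell shares were also higher on every array of slide 2 than on slide 1, while the stromal share was high on control 658 only; their part in these differences was not tested.

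The lowest SD belonged to miR-30b-5p, of a family described as promoting adipocyte differentiation. Its level ran from -0.09 on control 631 to 0.03 on control 662, a 1.08-fold range and an SD of 0.049. That level is the mean of 2 probes with SDs of 0.071 and 0.090. Control 627 was lowest for the first and highest for the second, so the mean was more even than either. miR-365, known from brown adipocytes, followed with 0.24 to 0.41 (1.12-fold), and its 2 probes had SDs of 0.048 and 0.095. The 15 most even also held both strands of miR-652 and of miR-322, miR-30d, miR-26a and miR-26b, miR-181a, miR-186, miR-29c, miR-450a, miR-324-3p and miR-339-3p. Their SDs lay between 0.049 and 0.094. miR-26a, at 2.06 to 2.25, was the brightest of them, and miR-26b ran from 0.69 to 0.93. miR-26a and miR-26b share their seed and each lies within a gene of the CTD small phosphatase family, Ctdspl and Ctdsp1.

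The order within the most even set is not resolved. The scaling factor has an error of its own, and on simulated arrays SDs of this size came out too large by their median. Its effect on a miRNA whose level lies close to the percentile, such as miR-30b-5p, was not tested. The set also changed with the scaling: with no scaling between arrays 3 of these 15 stayed among the 15 most even, and with a percentile over all probes 2. Of the 15 most even miRNAs, 3 were among the 15 most even of 142 on the HFD arrays. Below the HFD median were 8 of the 15, near the share of all miRNAs that lies below a median by definition. Of the 15 widest, 8 were among the 15 widest of the 142 there. miR-365 had an SD of 0.058 on the control arrays and 0.25 on the HFD arrays. miR-186 (0.076 and 0.078) and miR-26b (0.076 and 0.086) were even in both. Over the 142 miRNAs with both SDs, Spearman's rho was 0.43.

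The widest spread belonged to the muscle miRNAs. miR-1 had a level of -4.47, -4.82, -4.38 and -3.86 on controls 622, 627, 631 and 656, -1.60 on control 658, and 2.99 and 2.40 on controls 662 and 664. Every array of slide 2 was above every array of slide 1, and the ends differed by 224-fold. miR-133b had -4.71, -5.08, -4.61 and -3.86 on slide 1 and -1.43, 2.74 and 2.06 on slide 2, a 226-fold range. The 7 arrays fell in the same order for both miRNAs. miR-499, another muscle miRNA on all arrays, ran from -4.67 (control 656) to -3.49 (control 662), 2.28-fold. The SDs of miR-1 and miR-133b were 3.36 and 3.32, and 2.99 and 3.08 on the HFD arrays. Each rests on 1 probe. Without controls 662 and 664 their SDs were 1.29 and 1.47, miR-338 had the widest at 1.83, and 6 miRNAs had an SD above 1: miR-338, miR-133b, miR-1, miR-196a, miR-145 and miR-143.

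Next was miR-338, which lies within Aatk, a kinase gene of nerve tissue, and is known from neurons and the cells that make myelin. Its level was -1.07, -1.33, -3.16 and 0.13 on slide 1 and -4.49, -2.003 and -2.99 on slide 2. Control 656 was highest and control 658 lowest, a 24.7-fold range with an SD of 1.54 (1.92 on the HFD arrays). The slides overlapped, and miR-338 had the largest SD within slide 1. miR-204, from Trpm3, was also highest on control 656 (-3.03) and ran down to -4.94 on control 631, with an SD of 0.73. The share of the brain, nerve and glia list was highest on control 656 (2.07%) and lowest on control 664 (0.9998%). Its members did not move together. miR-212, the brightest of the list on average, had its lowest share on control 656 (0.642%) and its highest on control 658 (1.23%).

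Control 658 stood alone for the next group. miR-143 and miR-145, transcribed together, were high there: miR-143 at 3.74 against 1.10 to 1.77 on the other 6, and miR-145 at 0.09 against -2.66 to -1.96. miR-221, a miRNA of vessel walls that is listed here among those that restrain adipocyte differentiation, was at -1.75 against -3.76 to -3.34. miR-199a-5p, of fibroblasts, was at -0.69 against -2.22 to -1.73, and the other strand, miR-199a-3p, was also highest there (1.09 against 0.38 to 0.77). On the HFD arrays miR-143 was among the most even miRNAs, with an SD of 0.057 against 0.90 on the control arrays. There the SDs of miR-145, miR-221 and miR-199a-5p were 0.13, 0.13 and 0.14. Without control 658 the control SDs fell to 0.24 for miR-143, 0.27 for miR-145, 0.18 for miR-221 and 0.20 for miR-199a-5p.

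The miR-196 miRNAs went the other way on the same array. These come from the Hox gene clusters, which mark body position and differ between fat depots. miR-196a was at -4.83 on control 658 and between -2.75 and -1.97 on the other 6. miR-196b was at -5.12 against -3.48 to -2.84, and miR-196c at -5.67 against -4.14 to -3.32. Each pair of the 3 differs by 1 base, as the sequences above show, so the probes may not read them apart. Summed, they held 0.0696% of the signal on control 658 and up to 0.438% on control 627. miR-10b, also from a Hox cluster and a member of the stromal list, was lowest on control 658 as well (-0.08 against 0.25 to 0.42). miR-10a-5p was not (-0.59, against -0.86 to -0.40). Without control 658 the SDs of miR-196a, miR-196b and miR-196c were 0.32, 0.23 and 0.35, in place of 0.999, 0.77 and 0.82.

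Over all 145, control 658 was the highest array for 36 miRNAs and the lowest for 40. Without it, 6 miRNAs in place of 14 had an SD above 0.5, and 10 of the 15 widest were still among the 15 widest. On this array 198 miRNAs were detected, the median of the group, and 22.7% of spots were well above background. The median coefficient of variation of its replicate spots was 5.14%, near the top of the group's range of 3.75% to 5.27%. The part of array quality in these differences was not tested.

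Red cell miRNAs, of whose 4 names 2 were on all arrays, divided the slides. miR-451 was at 1.20, 0.62, 1.20 and 0.64 on slide 1 and 2.10, 2.04 and 2.30 on slide 2. miR-144, from the same precursor region, was at -2.26, -2.61, -1.82 and -2.43 on slide 1 and -0.68, -0.73 and -0.82 on slide 2. In each case the slides did not overlap, with mean differences of 1.23 and 1.54. Within slides their SDs were 0.27 and 0.27, against 0.70 and 0.86 over all 7 arrays. On the HFD arrays their SDs were 0.52 and 0.69, the fifth and the fourth widest of 142. The part of the slide in this was not tested.

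**Figure D5:**
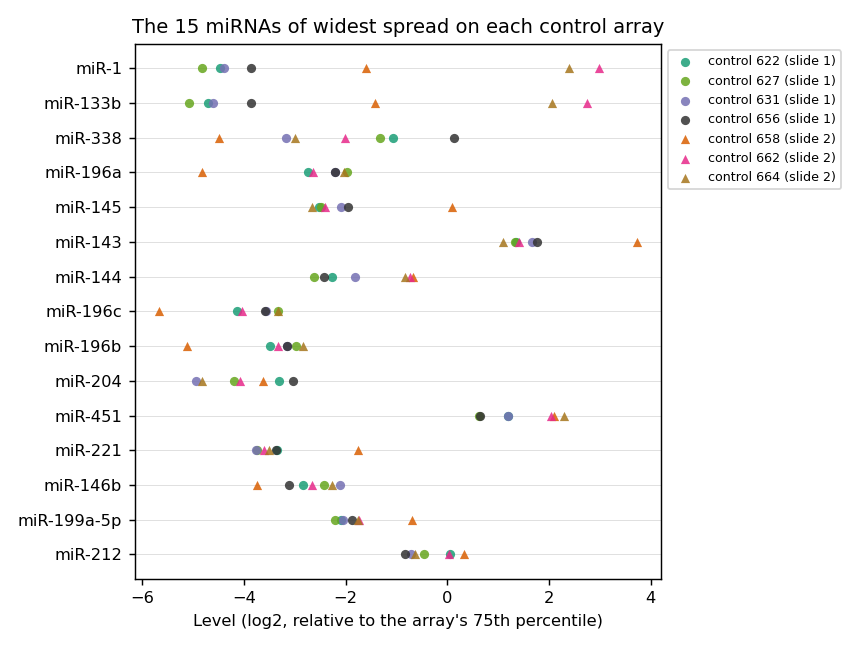
Level (log2, relative to the array's 75th percentile) of the 15 miRNAs of widest spread on each control array, circles for slide 1 and triangles for slide 2. miR-1 and miR-133b split into slide 1, control 658, and controls 662 and 664, while control 658 stands alone for miR-143, miR-145, miR-221, miR-199a-5p and the miR-196 members.

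Members of the white cell list varied on different arrays. miR-142-3p was at 0.91 on control 664 and between -0.36 and 0.22 elsewhere. Its SD of 0.43 fell to 0.24 without control 664. The other strand, miR-142-5p, named after its values were seen, was at -2.04 on control 664 and between -3.32 and -2.65 elsewhere. The 2 strands lay on the same side of their means on 7 of 7 arrays. miR-146b was lowest on control 658 (-3.73) and highest on control 631 (-2.10), and miR-146a was highest on control 622 (-0.12) and lowest on control 658 (-0.67). miR-150 was the most even of these, with an SD of 0.14.

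Strands of a hairpin lay on the same side of their means on all 7 arrays in some cases and on few in others. Of 24 hairpins with both strands on all 7 arrays, 16 had a spread for both. The strands were on the same side on 7 arrays for 4 of the 16, on 6 for 2, on 5 for 2, and on 4 or fewer for 8. For the 4 brightest, let-7a, miR-126, miR-29a and miR-22, the strands were on the same side of their means on 2, 4, 2 and 4 of 7 arrays. The SDs of these 8 strands were between 0.11 and 0.29.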

How the data were processed

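Per the labels' protocols, total RNA of fat was extracted with a miRNeasy kit and 100 ng was labelled with Cy3 for an Agilent 1-colour rat miRNA array. Per the file headers, the authors read each scan with Feature Extraction 10.7.3.1 (grid build rn4), whose background-subtracted intensity per spot and total gene signal per miRNA, both on a linear scale, were used as deposited. The authors' deposited table holds log2 values of the total gene signal, blank where not detected, with no centring seen; its control columns have medians of 7.41 to 7.77. It served as an alternative only. RMA and Partek also stand in the submitters' processing notes, without a role.

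Here, a miRNA was present where the software called it detected; its total gene signal is 0.1 elsewhere. For levels, unflagged spots of a probe were averaged and scaled to the 75th percentile, per array, of the 260 probes well above background (in at least 0.5 of their spots) on all 13 arrays. The log2 values were averaged over a miRNA's probes detected on all 7 control arrays (264 probes). SDs were computed with Python 3.11.15 (numpy 2.4.6, pandas 2.3.3). The normexp alternative (offset 50; limma 3.58.1, R 4.3.3) used the median spot signal, since no mean signal column was used. The scripts were tested on simulated arrays of known spread. With the true scale factors the spreads came back. With the factor estimated as here, medians of large SDs came back and those of the smallest came out too large. The percentile has an error of its own. The number of arrays limits the precision of every SD.

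Named were the 20 brightest, the 15 widest and 15 most even, the 10 dimmest present on all, the 10 brightest present on some, up to 4 members of each of 26 lists, and strand pairs. The members and lists were chosen with earlier results of these data known. The gut and kidney list (3 of 9 on all arrays: miR-192, miR-194 and miR-196c) was left undescribed, because miR-196c is a Hox-cluster miRNA. No group test was made and no samples were paired. Names of miRNAs follow the array's design.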

Additional observations from a re-analysis of the deposited data

Results flagged for a closer look

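Of 103 values tested over the 7 control arrays, 14 had 1 array far from the other 6 (the gap to the nearest array, divided by the whole range, was above Dixon's 95% critical value). Chance flags about 1 in 20 groups, but the values tested include the 15 widest miRNAs, chosen for their spread on these arrays, and 7 of the 12 flagged levels are among them, so the number flagged is a description and not a test against that rate. Control 658 was the array in 10 of the 14. It was high for miR-143 (0.746 of the range), miR-145 (0.745), miR-221 (0.793), miR-199a-5p (0.680) and miR-29b (0.579), and for the summed share of the smooth muscle and stromal list (0.864). It was low for miR-196a (0.728), miR-196b (0.720), miR-196c (0.650) and miR-10b (0.659). These values share 1 array and, for the miR-196 members, near-identical sequences, so they are not independent.

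The other 4 were small or dim. Control 662 was low for miR-130a (0.594; level -0.07 against 0.12 to 0.25) and high for miR-29c* (0.774; -4.76 against -5.17 to -5.08). Control 622 was low for miR-339-3p (0.607; -4.62 against -4.44 to -4.33) and high for the liver list (0.641), which is miR-122.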

How the results depend on the processing

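The counts on all, some or none of the arrays and the median SD stayed within 1.5 times of the values given under each alternative run. With a signal above 6 times its error as the call, 135 were on all and 43 on some; with at least 1 probe well above background in 0.5 of its spots, 145 and 46. Leaving out each array in turn gave 171 to 177 on all, 43 to 49 on some, 457 to 461 on none, a share of 58.8% to 60.6% in the 20 brightest and a median SD of 0.15 to 0.16. The median SD over the other settings ran from 0.12 (slide 1 only) to 0.23 (no scaling). The share of the 20 brightest was 54.5% from the deposited table, and 59.7% from it without its 11 shifted values, an alternative chosen after seeing the data. The number of SDs above 1, 3 as given, was 5 by total gene signal, 3 to 5 when 1 array was left out, and 6 without controls 662 and 664; miR-196a, miR-145 and miR-143 lie just under the limit. It was 1 on slide 1 only and 9 on slide 2 only, a split added after seeing the data. For 23 of 89 named miRNAs with an SD, leaving out 1 array moved it by over 1.5 times. In all, 266 of 1842 such values over the settings moved by that much. miR-23b left the first 20 by the deposited table; the other 219 ranks tried stayed within it.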

Other observations

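The deposited table departs from the scanner's total gene signal at a few control values, in a regular way. Of 1362 control values in the table, 11 lay more than 1 above log2 of the scanner's signal, each by close to a power of 10: 6 by 10-fold, 2 by 100-fold and 3 by 1000-fold. The 10-fold ones are miR-10b and miR-24 on control 631, miR-126* on control 662, miR-146a on control 664, miR-202* on control 622 and miR-378 on control 627. The 100-fold ones are miR-301a on control 656 and miR-652 on control 658. The 1000-fold ones are miR-328a on control 622, miR-3593-3p on control 631 and miR-429 on control 662. All were named after their values were seen.

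For example, miR-24 on control 631 had a total gene signal of 4890.15 and a table value of 15.58, where log2 of the signal is 12.26. miR-328a on control 622 had 30.1 and a table value of 14.94, where log2 is 4.91. Of the 1362 signals, written to 6 significant digits, 12 contain the characters 0.1, and 0.1 is also the value the software writes where a miRNA is not detected. For those 12, log2 of the number left when these characters are replaced by 1 equals the table's value within 0.001. The other 1350 table values equal log2 of the signal itself within 0.001. How the table was made is not given in the sources used here. The levels, spreads and shares above come from the scanner files and do not use the table; a reader of the table alone would find miR-429 at 14.36 on control 662, brighter than let-7f there at 13.96.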
